A study of Homo sapiens with 12 samples.

Results

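The 8 genes TPT1, RACK1, NAP1L1, SLC25A5, SLC25A6, NACA, BTF3 and AHCY were grouped as having 5' terminal oligopyrimidine (5'TOP) type mRNAs. Their mRNAs encode neither ribosomal proteins nor translation initiation or elongation factors. They were selected by symbol, 8 of the 15798 genes in the count table, and the choice was made with earlier ribosome density results of these data known. Their changes between treatments are therefore given as a description. Ribosome profiling (Ribo-seq) was done on HCT116, an established human colorectal cancer line. Cells were kept for 24 h with 100 nM trametinib, which inhibits the kinases MEK1/2 upstream of ERK, or with the solvent DMSO, and all dishes received the elongation inhibitor cycloheximide shortly before lysis. Each treatment gave 3 input and 3 footprint libraries, 4 groups in all, where input is randomly fragmented RNA of the cytoplasmic lysate and footprints are the fragments that ribosomes protected from RNase I, taken from the monosomal gradient fraction. A single cell line, a single dose and a single time point were used, so the comparison reaches no further than these cells.

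5'TOP mRNAs begin with a C at the cap, followed by an unbroken run of pyrimidines. The protein LARP1 binds the cap together with this run and holds such mRNAs off ribosomes when the kinase complex mTORC1 is inactive, while active mTORC1 releases them. Most of the class encodes the ribosome itself and the factors that serve it, and the genes described here were grouped with the smaller remainder. The question addressed is how their footprints, their mRNA and the ratio of footprints to mRNA, called ribosome density, compared between MEK-inhibited and control cells.

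TPT1 encodes the translationally controlled tumour protein TCTP, a long-known 5'TOP mRNA. RACK1 encodes a WD-repeat scaffold that sits on the head of the small ribosomal subunit. NACA and BTF3 encode the alpha and beta subunits of the nascent polypeptide-associated complex (NAC), which binds new chains at the ribosomal exit. SLC25A5 and SLC25A6 encode the ADP/ATP carriers ANT2 and ANT3 of the inner mitochondrial membrane. NAP1L1 encodes a chaperone for histones H2A and H2B, and AHCY the enzyme that hydrolyses S-adenosylhomocysteine, the by-product of methylation reactions.

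The start sequence, by whose letters the class is defined, is shown for each gene as 30 bases of the RefSeq promoter set (GRCh38.p14). Of these, 10 lie before and 20 run from the annotated start of the MANE Select transcript. They are read 5' to 3' on the gene's strand, and capitals mark the run of pyrimidines that opens at the first transcribed base. The 20 bases from the start open the first exon, in the 5' untranslated region.
TPT1 (chr13:45341164-45341193, minus strand): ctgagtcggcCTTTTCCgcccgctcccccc
RACK1 (chr5:181243887-181243916, minus strand): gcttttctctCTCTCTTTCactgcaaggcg
NAP1L1 (chr12:76084666-76084695, minus strand): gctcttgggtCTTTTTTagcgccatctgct
SLC25A5 (chrX:119468434-119468463, plus strand): cttcgctccgCCCCgcagcgccggagtcaa
SLC25A6 (chrX:1392094-1392123, minus strand): gctgctccgtCCTTTCggtccaggcggcgg
NACA (chr12:56725280-56725309, minus strand): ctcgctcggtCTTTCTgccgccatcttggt
BTF3 (chr5:73498432-73498461, plus strand): cttccggcctCCCTTTagctgccatcttgc
AHCY (chr20:34303336-34303365, minus strand): acgcgcatatCCCTgctcggcgctgcccgc

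All 8 windows had a C as the first transcribed base, which holds for 14.7% of 35116 RefSeq promoters. The run was 9 letters long in RACK1, 7 in TPT1 and NAP1L1, 6 in SLC25A6, NACA and BTF3, and 4 in SLC25A5 and AHCY. In RACK1 another 9 pyrimidines stood directly before the annotated start, and in BTF3 another 3. A C-led run of at least 4 letters at the annotated start was present in 8 of 8 members and in 5.45% of all promoters. This cut equals the shortest run among the members, so 8 of 8 was fixed by it and nothing is read from it. A run of at least 5 letters was present in 6 members and in 4.07% of promoters. Among 8299 tested genes whose RefSeq start equals the MANE Select start, the shares were 7.24% for 4 letters and 5.88% for 5. Looking anywhere within 20 bases on either side of the start, a C followed by at least 4 pyrimidines was found on the sense strand in 6 members but also in 51.0% of promoters. These letters belong to the definition of the class and say nothing of which start the cells used. The authors' own mark of 5'TOP genes was on 106 genes, among them TPT1 and NAP1L1 but not RACK1, SLC25A5, SLC25A6, NACA, BTF3 or AHCY. RACK1, SLC25A6, NACA and BTF3 thus had a run of at least 5 letters without the mark. SLC25A5 and AHCY had neither, so the class name is not borne out for them here.

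Counts inside reading frames summed to 2276693 to 2845568 per input library and 10127477 to 19181588 per footprint library. Each member had 820 to 6694 counts in an input library and 808 to 32668 in a footprint library, so that counting error alone was at most 3.52% of a value. The treatment left its mark on the known transcriptional targets of ERK. In trametinib input 6 of 6 checked genes were called lower (edgeR, adjusted p-value under 0.05), beside 16.8% of all tested genes. Their log2 changes ran from -7.69 for DUSP6 to -0.90 for PHLDA1. Epithelial markers summed to 3562 to 6256 CPM (counts scaled to a common library size) in input. KRT8 and KRT18 held most of this, at means of 2404.5 and 1579.1 CPM in DMSO input. The listed markers CDH17 and VIL1 were near absent, with at most 1 count in any input library. Markers of blood, endothelial and stromal cells summed to 6.58 to 15.8 CPM in input, of which COL1A1 held most and the leukocyte gene PTPRC at most 1 count in a library. In bulk lysates fewer cells and less RNA per cell cannot be told apart, and a change shared by every mRNA is invisible because libraries are scaled to each other.

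In control cells all 8 mRNAs were abundant. Per kilobase of coding sequence, TPT1 stood at 3514 ± 636 CPM (SD, n = 3) in DMSO input and RACK1 at 2236 ± 184 CPM. They were followed by SLC25A5 at 775 ± 152, NACA at 695 ± 92.5, BTF3 at 675 ± 64.5 and SLC25A6 at 550 ± 87.6 CPM per kilobase, a group of 4 in which neighbours did not differ by more than their summed SDs. AHCY, at 410 ± 33.0, and NAP1L1, at 356 ± 54.0 CPM per kilobase, were lowest, and these values too lay within the summed SDs of each other. Against 10538 tested genes with a coding length, even NAP1L1 ranked at the 96.9th percentile of this level. For NACA the most frequent coding length of its basic transcripts, 645 nt, was used, because the MANE Select transcript has a coding length of 6234 nt.

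Ribosome density differed widely between the 8 mRNAs. Expressed as log2 footprints over input relative to the median tested gene, DMSO density was 1.55 ± 0.24 (SD, n = 3 dishes) for BTF3, which put it at the 96.3rd percentile. NAP1L1 stood at 0.51 ± 0.54, NACA at 0.08 ± 0.41, AHCY at 0.01 ± 0.24, SLC25A5 at -0.17 ± 0.13 and RACK1 at -0.26 ± 0.23, and these 5 did not differ from their neighbours in this order beyond the summed SDs. SLC25A6 and TPT1 were the exceptions at the low end, at -2.06 ± 0.23 and -2.40 ± 0.47, the 2.84th and 1.50th percentiles, and did not differ from each other beyond the summed SDs. TPT1 thus supplied 26.1% of the members' input counts but 6.02% of their footprint counts in DMSO, while BTF3 supplied 6.01% of input and 21.5% of footprint counts. Of the 30-base stretches in the coding sequence, 52.5% for TPT1 and 53.2% for BTF3 also occur in transcripts of other genes, mainly processed pseudogenes. The share was 46.6% for NAP1L1, 38.5% for SLC25A5 and 17.2% for AHCY. It was 6.11% for SLC25A6, 3.24% for RACK1 and 4.85% for NACA, the last over its MANE Select coding sequence of 6234 nt. Only NACA had such stretches in a coding transcript of another gene, at 3.17%. Both kinds of library were counted with the same short read length on reading frames, and the part of these shared stretches in the density levels was not tested.

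**Figure D1:**
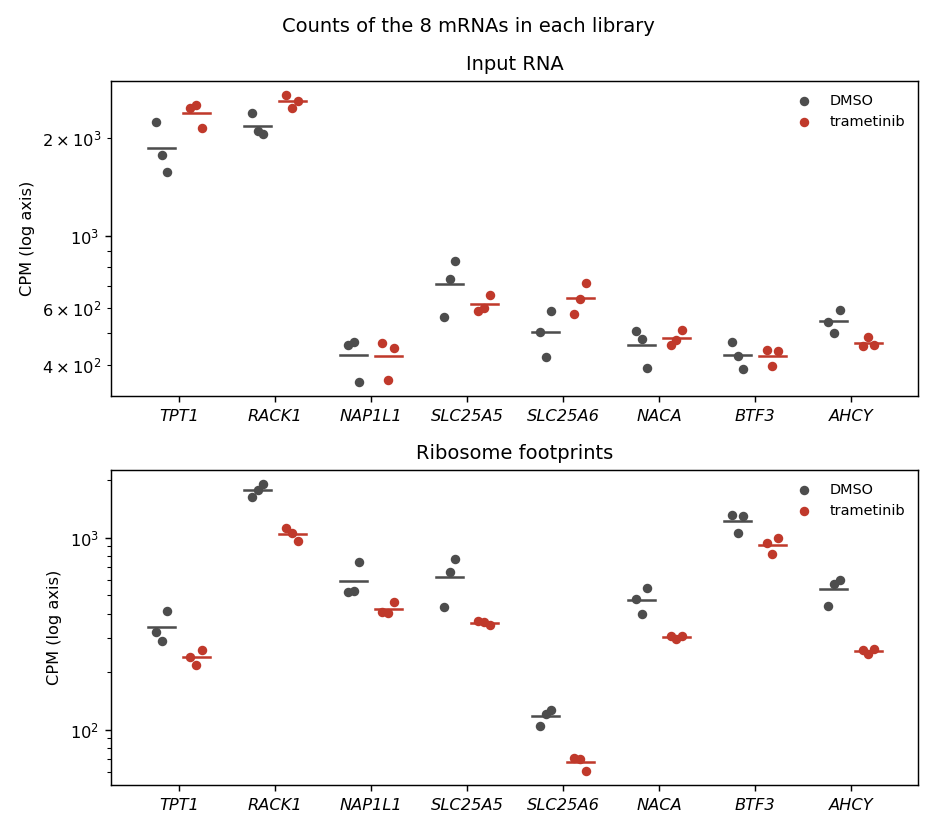
CPM (log axis) of the 8 mRNAs in each library, input above and footprints below, with a point per library and a bar at the group mean (n = 3). The trametinib footprint points lie below all DMSO footprint points for each of the 8 genes, while most input points of the treatments overlap.

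Footprint values in trametinib lay below every DMSO value for all 8 members. By the same measure of no overlap, 30.3% of the 10663 tested genes were lower in trametinib footprints. In input, 1 member (AHCY) was lower without overlap, as were 23.2% of tested genes, and 1 (RACK1) was higher without overlap, as were 23.5%. Footprints over input, taken dish by dish, was lower without overlap for 7 of 8 members and for 6.65% of tested genes, with NAP1L1 the exception.

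RACK1 and TPT1, the most abundant mRNAs of the group, had lower footprints beside input estimates above control. RACK1 had 1637, 1777 and 1902 CPM in the DMSO footprint libraries and 1117, 1058 and 960 CPM with trametinib. Its input was 2392, 2101 and 2059 CPM in DMSO and 2707, 2476 and 2593 CPM with trametinib. Neither assay overlapped between treatments, and the directions were opposite. The log2 change of RACK1 was -0.76 (SE 0.12) in footprints, 0.25 (SE 0.13) in input and -0.93 (SE 0.17) in ribosome density, which left density at 52.4% of control.

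TPT1 had 323, 290 and 414 CPM in DMSO footprints and 240, 216 and 261 CPM in trametinib footprints. Its input was 2235, 1778 and 1574 CPM in DMSO against 2471, 2537 and 2151 CPM with trametinib, where the highest control library overlapped the treated ones. The log2 change was -0.52 (SE 0.15) in footprints, 0.36 (SE 0.15) in input and -0.80 (SE 0.23) in density. Since input and footprint estimates had opposite signs, the density estimate of TPT1 was larger than its footprint estimate. From an already low level, TPT1 reached the 0.366th percentile of density among tested genes in trametinib.

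Of the NAC subunits, BTF3 had the smallest footprint change of the 8 genes, at -0.41 (SE 0.14), and NACA an intermediate one, at -0.65 (SE 0.13). NACA had 480, 401 and 547 CPM in DMSO footprints and 308, 296 and 306 CPM in trametinib footprints, with input of 507, 482 and 391 CPM against 461, 477 and 513 CPM. BTF3 had 1307, 1062 and 1299 CPM in DMSO footprints and 932, 821 and 1000 CPM in trametinib footprints, with input of 471, 426 and 389 CPM against 444, 398 and 440 CPM. Input of both subunits overlapped between treatments and footprints of neither did. The log2 change in density was -0.65 (SE 0.20) for NACA and -0.33 (SE 0.19) for BTF3, the latter with a 95% interval of -0.73 to 0.07. BTF3 kept the highest density of the 8 in trametinib as in DMSO, at 1.17 ± 0.09 relative to the median gene.

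**Figure D2:**
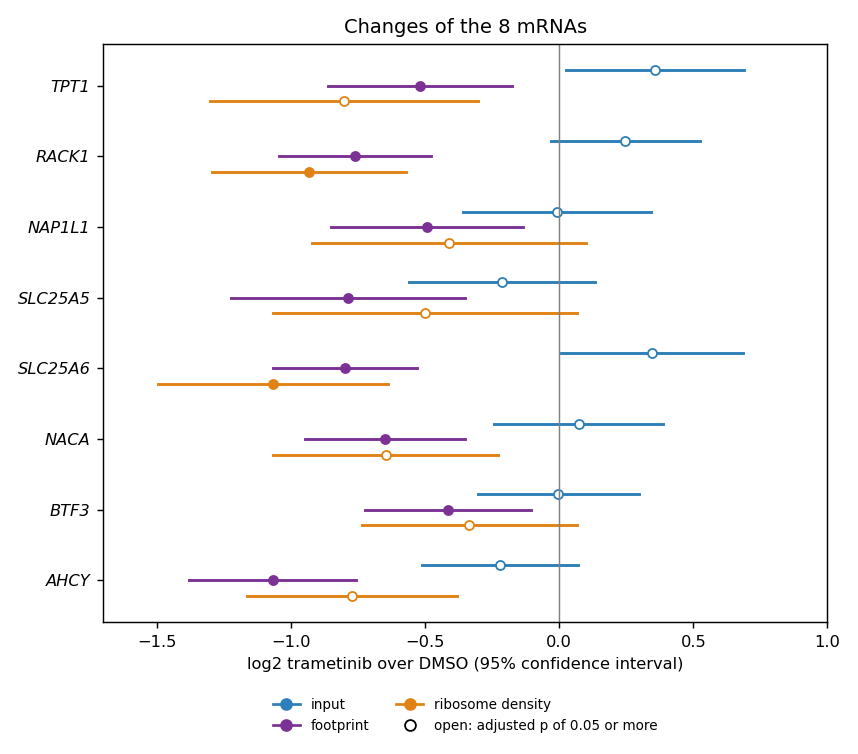
Log2 change of trametinib over DMSO for each of the 8 mRNAs in input, footprints and ribosome density, with 95% confidence intervals from edgeR, where filled points have an adjusted p-value under 0.05. All 8 footprint points are filled and negative, no input point is filled, and the density points of RACK1 and SLC25A6 are filled.

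The ADP/ATP carriers differed in level but had close footprint changes. Their input estimates had opposite signs, neither with an adjusted p-value under 0.05 in edgeR. SLC25A6 had 105, 121 and 126 CPM in DMSO footprints and 71.2, 70.0 and 61.1 CPM with trametinib, the lowest footprint values of the 8 genes. Its input was 506, 424 and 586 CPM in DMSO and 573, 637 and 716 CPM with trametinib. The log2 change of SLC25A6 was -0.80 (SE 0.12) in footprints and 0.35 (SE 0.16) in input. Its density change of -1.07 (SE 0.20), or 47.7% of control, was the lowest estimate among the members.

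SLC25A5 had 436, 661 and 771 CPM in DMSO footprints and 368, 364 and 350 CPM with trametinib, and 561, 734 and 838 CPM in DMSO input against 586, 600 and 656 CPM with trametinib. Control libraries of SLC25A5 spread widely in both assays, in the same order, whereas treated libraries were close together. Its density, footprints over input, was 0.804, 0.919 and 0.967 in the DMSO dishes and 0.684, 0.658 and 0.589 in the trametinib dishes. The log2 density change was -0.50 (SE 0.26), with a 95% interval of -1.07 to 0.07, as part of the footprint difference of -0.79 (SE 0.19) was matched by an input difference of -0.21 (SE 0.16). Without DMSO footprint library 3 the density change was -0.30, and the input difference was -0.08 without DMSO input library 3 and -0.36 without DMSO input library 1.

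AHCY had the largest footprint decrease of the group. It went from 441, 571 and 601 CPM in DMSO footprints to 259, 248 and 262 CPM with trametinib, a log2 change of -1.07 (SE 0.14). Its input was 542, 502 and 592 CPM in DMSO and 458, 487 and 459 CPM with trametinib. AHCY was thereby lower without overlap in both assays, and its density change was -0.77 (SE 0.18).

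NAP1L1 had 520, 529 and 743 CPM in DMSO footprints and 411, 402 and 459 CPM in trametinib footprints. Its input was 460, 472 and 354 CPM in DMSO and 469, 360 and 450 CPM with trametinib, a log2 change of -0.01 (SE 0.16). The density of NAP1L1 was 1.17, 1.14 and 2.20 in the DMSO dishes and 0.954, 1.21 and 1.13 in the trametinib dishes. The high control value came from the third dish, which held both the lowest DMSO input and the highest DMSO footprint value of this gene, and the remaining dishes overlapped with the treated ones. The density change was -0.41 (SE 0.24), with a 95% interval of -0.92 to 0.10. Without DMSO footprint library 3, which belongs to that dish, it was -0.21, and the footprint change was -0.29 in place of -0.49.

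**Figure D3:**
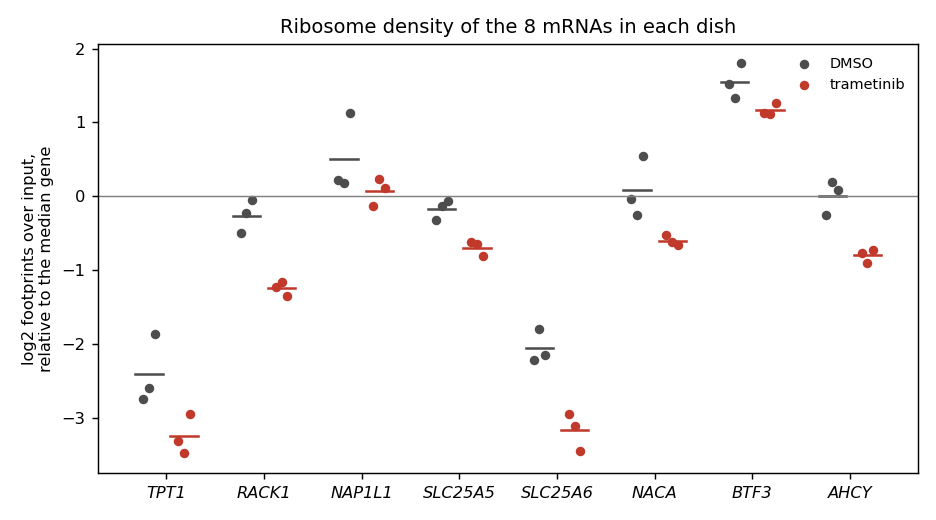
Log2 footprints over input relative to the median tested gene for each dish, with a point per dish (n = 3) and a bar at the mean. BTF3 lies highest and TPT1 and SLC25A6 lowest in both treatments, and NAP1L1 is the gene whose dishes overlap.

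At an adjusted p-value under 0.05 in edgeR, ribosome density was lower in 2 of 8 members, RACK1 and SLC25A6, where 0.816% of tested genes were called lower, and higher in none, where 0.0938% were called higher. For the members this contrast guided the choice, so nothing is read from the count. Footprints were called lower in 8 of 8 members and in 25.6% of tested genes, and higher in none of them, against 23.9%. The footprint calls of TPT1, NAP1L1 and BTF3 were lost with library totals as the scaling, without DMSO footprint library 3 and without trametinib footprint library 1 or 2, and that of NAP1L1 also without trametinib footprint library 3. Input was called in none of the 8, against 16.8% of genes called lower and 15.4% called higher. At an unadjusted p-value under 0.05 edgeR had 2 members higher and 0 lower in input, and after adjustment DESeq2 and limma also called 0. The members' median log2 change was -0.71 in density, -0.71 in footprints and 0.03 in input, beside 0.07, -0.01 and -0.00 over all tested genes.

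The number of members called in density depended on the fit. DESeq2 called 5, adding TPT1, NACA and AHCY, where 150 of all tested genes were called lower against 87 in the main fit. A model with a term for each dish called 3, adding AHCY with an edgeR adjusted p = 0.0209, where 127 genes were called lower. The adjusted p-value of AHCY ran from 0.000612 (DESeq2) to 0.238 (edgeR) over its 21 alternatives. AHCY was also called with median-of-ratios scaling, with TMM computed without the members, ribosomal proteins and listed factors, without DMSO input library 3 and without DMSO footprint library 1. Without the trametinib footprint library 2 no member was called, where 49 of all tested genes were called lower. The edgeR adjusted p-value of RACK1 and SLC25A6 was then 0.0573, the highest of their 21 alternatives. With DESeq2 it reached down to 1.02e-08 for RACK1 and 6.98e-06 for SLC25A6. All 8 estimates stayed below 0 in every alternative that was run, each a refit of these same libraries. In the main fit 40.7% of all tested genes had a density estimate below 0.

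Beside the larger groups of the 5'TOP class the members' density changes were of similar sign and somewhat smaller size, a difference that was not tested. Of 79 cytosolic ribosomal protein mRNAs 55 were called lower in density, beside 0.816% of tested genes, with a median of -1.01. Their range was -1.52 to -0.26. Both lists were chosen with earlier results of these data known, so their counts are given as a description. Of 12 listed translation factor mRNAs 7 were called lower, with a median of -0.92, from EEF1G at -1.99, a subunit of the elongation factor that recycles eEF1A, to PABPC1 at 0.31, the poly(A)-binding protein. In input, 5 of the 12 factors and 9 ribosomal protein mRNAs were called higher, beside 15.4% of tested genes, and 1 ribosomal protein mRNA was called lower, beside 16.8%. In DMSO the median density relative to the median gene was -0.76 for ribosomal proteins, -1.16 for the factors and -0.08 for the 8 members.

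**Figure D4:**
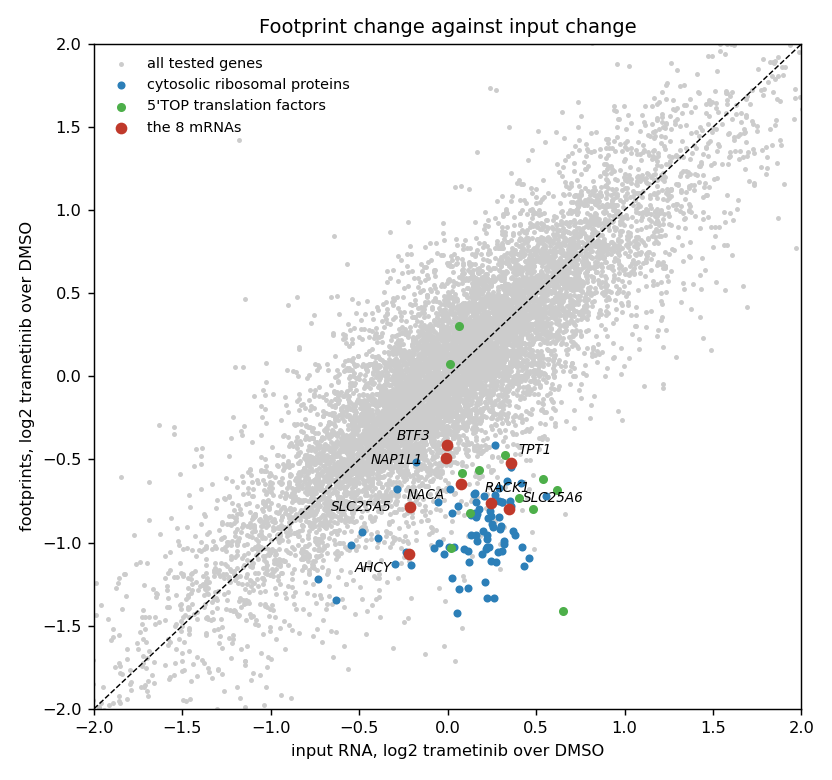
Log2 change of footprints against that of input for all tested genes (grey), ribosomal proteins (blue), translation factors (green) and the 8 mRNAs (red), with the dashed line marking equal change and 575 genes outside the plotted range. The 8 mRNAs lie below the line, among or next to the ribosomal proteins, with footprint changes of -0.41 to -1.07.

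Density changes of paralogs and functional partners of the members lay on both sides of 0, from -0.70 to 0.47. Over 26 tested genes in 5 such lists, edgeR called 0 lower and 0 higher in density, with 1 lower and 0 higher at an unadjusted p-value under 0.05, and DESeq2 and limma also called 0. Of all tested genes, 0.816% were called lower and 0.0938% higher, so 0 calls among 26 genes is near that share and nothing is read from it. The median density change of the 26 was 0.16, with 6 of 26 estimates below 0. Over all tested genes the median was 0.07 and 40.7% of estimates were below 0. SLC25A4, which encodes the muscle-type carrier ANT1, had a density change of 0.28 (SE 0.22) and SLC25A3, the phosphate carrier, one of -0.15 (SE 0.20). AHCYL1 and AHCYL2, relatives of AHCY, stood at 0.10 (SE 0.17) and 0.18 (SE 0.18). NAP1L4, a paralog of NAP1L1, stood at -0.09 (SE 0.24), and BTF3L4, a paralog of BTF3, at 0.30 (SE 0.40). The lowest estimates were those of the chaperones HSPA8, at -0.70 (SE 0.62), and NPM1, at -0.52 (SE 0.23). The highest was that of SRP54, at 0.47 (SE 0.38), and the 4 listed WD-repeat scaffolds lay at 0.18 to 0.36. Among the same 26 genes, input was called lower in 11 and higher in 3, beside 16.8% and 15.4% of tested genes, and footprints lower in 10 and higher in 5, beside 25.6% and 23.9%.

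Most other mRNAs with a pyrimidine run at the annotated start had density changes near 0. Outside the members, the ribosomal proteins, the listed factors and the genes marked by the authors, 537 tested genes began with a C-led run of at least 4 letters. Their median density change was -0.04 and 6 of them, 1.12%, were called lower, namely EIF2S3, FBL, NCAPD2, NOP53, PRR11 and THG1L. Among all 8299 tested genes with a matched start the median was 0.07 and 0.795% were called lower. With ribosomal proteins, factors and members included, 601 genes had such a run, with a median of -0.09 and 46 called lower (7.65%). Among these other genes the median did not fall steadily with the length of the run. It was 0.01 at 4 letters, -0.07 at 5, -0.01 at 6, -0.12 at 7, -0.06 at 8 and -0.01 at 9 or more. The 7-letter group, 68 genes with 3 (4.41%) called lower, was the most extreme. This grouping was made after the values were seen.

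Ratios between members within a library need no scaling between libraries. How often ratios of other gene pairs fail to overlap between treatments was not computed. Among single tested genes, 23.2% were lower and 23.5% higher without overlap in input. The shares were 30.3% and 29.3% in footprints and 6.65% and 11.7% in density. SLC25A5 over SLC25A6 was 1.11, 1.73 and 1.43 in DMSO input and 1.02, 0.941 and 0.917 in trametinib input, without overlap. In footprints the same ratio was 4.17, 5.47 and 6.11 in DMSO and 5.17, 5.20 and 5.73 with trametinib, and the groups overlapped. The log2 ratio of the carriers differed between treatments by -0.55 (SE 0.19) in input and by 0.05 (SE 0.17) in footprints, the latter smaller than its error. The log2 ratio of their densities differed by 0.59 (SE 0.15), without overlap.

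For the NAC subunits, the log2 ratio of NACA over BTF3 differed by 0.08 (SE 0.08) in input, and the libraries overlapped. In footprints the ratio was 0.368, 0.377 and 0.421 in DMSO and 0.330, 0.361 and 0.306 with trametinib, a log2 difference of -0.23 (SE 0.09) without overlap. The log2 ratio of the 2 densities differed by -0.31 (SE 0.13), also without overlap. AHCY over TPT1 differed by -0.59 (SE 0.20) in input and by -0.55 (SE 0.17) in footprints, without overlap in either, so that their ratio of densities differed by only 0.04 (SE 0.27). RACK1 over TPT1 overlapped between treatments in both assays, with log2 differences of -0.12 (SE 0.12) in input and -0.25 (SE 0.18) in footprints. Their ratio of densities overlapped too, with a log2 difference of -0.14 (SE 0.27).

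**Figure D5:**
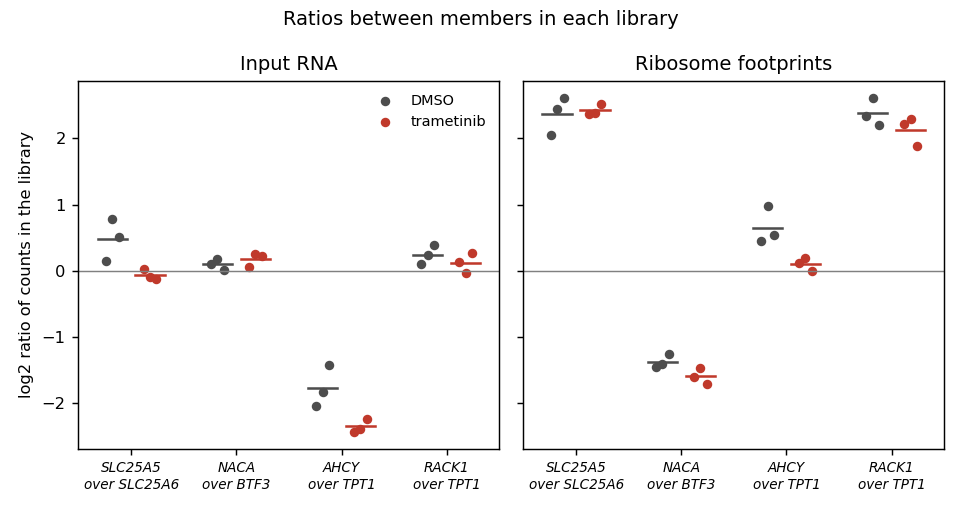
Log2 ratio of counts for 4 pairs of members in each library, input left and footprints right, with a point per library and a bar at the group mean (n = 3). SLC25A5 over SLC25A6 is lower with trametinib in input, while NACA over BTF3 is lower with trametinib in footprints.

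Together the 8 mRNAs took up 0.739, 0.707 and 0.687% of all counts in DMSO input and 0.816, 0.798 and 0.786% in trametinib input. In footprints the share was 0.485, 0.514 and 0.602% in DMSO and 0.395, 0.369 and 0.385% in trametinib. The share was thus higher in every treated input library and lower in every treated footprint library, with means of 0.711 ± 0.026 and 0.800 ± 0.015% in input and of 0.533 ± 0.061 and 0.383 ± 0.013% in footprints (SD, n = 3). The higher input share lay with TPT1 (0.185% in DMSO and 0.237% with trametinib), RACK1 (0.218 and 0.258%) and SLC25A6 (0.0505 and 0.0638%), whereas SLC25A5 (0.0713 and 0.0610%) and AHCY (0.0544 and 0.0466%) were lower. RACK1 alone made up 30.6% of the members' input counts and 31.2% of their footprint counts in DMSO.

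The mRNAs whose profile over the 12 libraries was most like the mean of the 8 members came largely from the translation machinery. Profiles were log2 CPM centred within input and within footprints, likeness was the root mean square distance, and 6783 other genes whose normalized counts averaged 100 or more in each assay were compared. The nearest were EIF3L (distance 0.07), RPL23A, EIF3H, EIF2S3, EIF3F, EIF2A, RBMX2, RPL14, RPSA and RPL6 (distance 0.11), against a median distance of 0.37. EIF3L, EIF3H and EIF3F encode subunits of initiation factor eIF3 and EIF2S3 the gamma subunit of eIF2. Because the members were chosen with their density change known, that choice fixed the direction of their neighbours and shaped which genes came nearest. Nothing is read from either. Among the members, RACK1 and NACA were closest to the mean of the other 7, at distances of 0.11 and 0.11, and SLC25A5 was farthest, at 0.24.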

How the data were processed

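Per the study's methods, the authors discarded reads aligning to rRNA and tRNA with Bowtie 1.2.2, mapped the rest to basic Gencode V38 transcripts and counted short reads inside reading frames of a single gene symbol, so reads shared between symbols are missing. The deposited table of the authors holds whole-number counts, these counts after division by size factors (a normalized signal), a true or false mark for 5'TOP genes, and the authors' fold changes and adjusted p-values from DESeq2 1.46.0, which were not used. Size factors recomputed from the counts equalled the deposited scaling in 12 of 12 libraries within a relative tolerance of 1e-04.

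A gene was tested where 3 or more input libraries held 10 or more counts of it, which 10663 genes fulfilled. The edgeR quasi-likelihood test (edgeR 4.0.16, R 4.3.3) with TMM scaling was fitted across all of them, with Benjamini-Hochberg adjustment. Ribosome density was the interaction of assay and treatment over 12 libraries, while input and footprints were fitted within their 6 libraries, with CPM scaled alike. Density per dish and the CPM per kilobase used TMM scaling over all 12 libraries instead. Density per dish also added 0.5 CPM to both assays. Dividing the CPM given per library therefore does not return the densities exactly. Alternatives were DESeq2 1.42.0, limma-trend (limma 3.58.1), other scalings and filters, replicate or dish terms and leaving out each library. A legend of the study calls the 3 replicates biological without saying how they were separated, so errors and p-values measure the spread between these libraries.

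Input and footprints of equal treatment and number were taken as 1 dish, since the study's methods set aside input RNA from the lysate before digestion. Over 7676 genes, deviations from the group means correlated at 0.816, 0.181 and 0.345 within DMSO dishes and at 0.141, 0.0809 and -0.122 within trametinib dishes. On simulated counts of 10663 genes, the edgeR density test recovered 41% of log2 changes of 1 and 2% of log2 changes of 0.5. It made 6 false calls among 49. On the same counts DESeq2 recovered 65% and 5%, with 20 false calls among 90, and limma 36% and 1%, with 4 among 41. The changes were placed in footprints of well-expressed genes only. Counts were drawn independently, without deviations shared within a dish, so the rates belong to that setting.

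The members and the gene lists were chosen with earlier results of these data known. All 8 members are named, and other genes where they belong to the partner lists or the translation factors or are the 10 nearest profiles. DUSP6, PHLDA1, COL1A1, PTPRC, KRT8, KRT18, CDH17 and VIL1 are named as checks of treatment and cell type. The 6 called genes with a pyrimidine run were picked after their values were seen. Sequences come from RefSeq and gene models from Gencode v44, both on GRCh38, and all 8 members matched.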

Additional observations from a re-analysis of the deposited data

How the results depend on the processing

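The signs of the members' density and footprint changes did not depend on the processing: 168 of 168 refitted density estimates and 112 of 112 refitted footprint estimates were below 0. Over all tested genes, 40.7% of density and 50.8% of footprint estimates were below 0 in the main fit. The refits reuse the same libraries and the members were chosen with their density change known, so nothing is read from these counts. The number called did depend on the processing. In density 5 members were called with DESeq2 against 2, and 0 to 3 when a single library was left out, with 0 higher throughout. In footprints 5 were called under library totals against 8, and 5 to 8 without a library, the 5 arising without DMSO footprint library 3 or without trametinib footprint library 1 or 2. Scaling by library totals moved the median of all genes to 0.18 in density and 0.16 in footprints. Over all settings, 49 to 150 genes were called lower in density against 87 and 1 to 37 higher against 10.

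In input, the fit with the replicate number as a block called 1 member higher, TPT1 (edgeR adjusted p = 0.0295, with 0.00694 to 0.257 over its 14 alternatives), and without a library 0 to 1 were called higher and 0 to 1 lower: TPT1 higher and SLC25A5 lower without DMSO input library 1, and SLC25A6 higher without DMSO input library 3. Across numbers, deviations correlated at 0.0690, 0.0502 and 0.339 in input and at 0.117, 0.132 and 0.294 in footprints, and the block called 2 members lower in density and 8 in footprints, as without it. Input signs near 0 were unstable: without a library NAP1L1 ran from -0.13 to 0.10, NACA from -0.029 to 0.147 and BTF3 from -0.066 to 0.0686, and BTF3 was 0.00029 with TMM computed without the members, ribosomal proteins and listed translation factors. Leaving mitochondrially encoded genes out of the denominator raised the members' share of input to 0.745% in DMSO and 0.835% in trametinib. A C followed by at least 6 pyrimidines near the start was found in 4 members and in 22.5% of all promoters.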
